A study of Mus musculus with 12 samples.

Results

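The genes described here are 7 inhibitory checkpoint receptors of T cells: Pdcd1 (PD-1), Ctla4 (CTLA-4), Lag3 (LAG-3), Havcr2 (TIM-3), Btla (BTLA), Cd160 (CD160) and Cd5 (CD5). They were taken by gene symbol from the 13780 genes of the raw count table, each symbol occurred in it, and all 7 are among the 13767 genes that passed the filter on low counts (at least 1 CPM, the count scaled to library size, in 3 or more libraries). Their transcripts were measured by RNA-seq in 12 libraries of mouse CD8+ T cells, which fall into 3 groups of 4. The cells came from spleens of C57BL/6J mice of 8 to 12 weeks and were purified by positive selection with magnetic beads. Naïve cells were frozen directly after purification without any treatment, and no sort for a naïve surface phenotype is described. Media cells were cultured for 72 h in plain media with beads carrying antibodies to CD3 and CD28 and with 10 U/ml of IL-2. Lactate cells were activated in the same way in media to which 40 mM of sodium lactate had been added, and no sodium chloride group was sequenced, so lactate and the added salt cannot be told apart here. The comparisons ask how activation changes the transcript of each receptor and how lactate during activation alters it.

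Checkpoint receptors are surface proteins that restrain the signal of the T cell receptor once their ligands engage them. PD-1, BTLA and CD160 belong to the immunoglobulin superfamily, and the first 2 of these recruit tyrosine phosphatases through motifs in their cytoplasmic tails, whereas CTLA-4 competes with the costimulatory receptor CD28 for CD80 and CD86. Most of these receptors are induced by activation and persist on chronically stimulated CD8+ T cells, while CD5 is present on resting T cells, where its level reflects the strength of the signal received in the thymus.

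In GRCm38, Pdcd1 (ENSMUSG00000026285) lies on chromosome 1 at 94038305-94052553 on the minus strand, and Ctla4 (ENSMUSG00000026011) on the same chromosome at 60887000-60915832 on the plus strand. Lag3 (ENSMUSG00000030124) lies on chromosome 6 at 124904361-124911705 on the minus strand, and Havcr2 (ENSMUSG00000020399) on chromosome 11 at 46454935-46481255 on the plus strand. Btla (ENSMUSG00000052013) lies on chromosome 16 at 45224315-45257670 on the plus strand, Cd160 (ENSMUSG00000038304) on chromosome 3 at 96798763-96829351 on the minus strand, and Cd5 (ENSMUSG00000024669) on chromosome 19 at 10717116-10739002 on the minus strand. Reads were counted over exons, and whether strand was used in counting is not stated. Of the exonic bases of Cd160, 68 (2.57%) are shared with Pdzk1 on the opposite strand, and the exons of the other 6 genes overlap no other gene.

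RefSeq promoters (GRCm38.p6, 250 bases before to 50 after the start site) were given for 6 of the 7 genes. Those of 4 are shown because their genes stand for the patterns measured here: Pdcd1 and Ctla4 were higher after activation, Havcr2 was lower after activation and higher with lactate than without, and Btla was lower with lactate. Capitals mark the NFAT core GGAAA and the hypoxia response core ACGTG on either strand.
Pdcd1 promoter, chr1:94052504-94052803, minus strand: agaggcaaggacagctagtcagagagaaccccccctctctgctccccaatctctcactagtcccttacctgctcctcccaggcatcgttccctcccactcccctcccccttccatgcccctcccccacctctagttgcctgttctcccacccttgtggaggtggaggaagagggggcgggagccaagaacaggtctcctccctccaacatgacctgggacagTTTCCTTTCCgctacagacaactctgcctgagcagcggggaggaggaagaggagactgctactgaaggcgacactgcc
Ctla4 promoter, chr1:60908775-60909074, plus strand: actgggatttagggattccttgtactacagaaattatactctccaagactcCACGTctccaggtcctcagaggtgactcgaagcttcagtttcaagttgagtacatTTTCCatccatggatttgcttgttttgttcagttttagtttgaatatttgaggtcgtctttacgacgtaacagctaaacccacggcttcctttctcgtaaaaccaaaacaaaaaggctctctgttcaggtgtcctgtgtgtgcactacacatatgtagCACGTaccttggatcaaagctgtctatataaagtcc
Havcr2 promoter, chr11:46454681-46454980, plus strand: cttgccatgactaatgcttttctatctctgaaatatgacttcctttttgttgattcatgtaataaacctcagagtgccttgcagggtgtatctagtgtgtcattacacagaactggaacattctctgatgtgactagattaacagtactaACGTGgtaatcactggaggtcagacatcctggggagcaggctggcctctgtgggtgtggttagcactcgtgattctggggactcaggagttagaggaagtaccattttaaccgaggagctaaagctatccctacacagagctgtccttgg
Btla promoter, chr16:45224087-45224386, plus strand: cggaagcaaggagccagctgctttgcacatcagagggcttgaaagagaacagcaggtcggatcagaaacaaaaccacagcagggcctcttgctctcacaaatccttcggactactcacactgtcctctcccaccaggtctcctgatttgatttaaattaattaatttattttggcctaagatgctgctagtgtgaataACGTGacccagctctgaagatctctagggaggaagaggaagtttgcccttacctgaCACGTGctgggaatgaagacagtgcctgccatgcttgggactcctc
NFAT is the factor that calcineurin sends to the nucleus after T cell receptor triggering, and ACGTG is the core of the element bound by hypoxia-inducible factors. The windows of Pdcd1 and Ctla4 hold 2 and 1 matches to GGAAA, which 61.3% of the 32851 RefSeq promoters hold, and those of Havcr2 and Btla hold 0. ACGTG, found in 19.6% of all promoters, occurs at 2 positions in the window of Ctla4, 1 in that of Havcr2 and 3 in that of Btla, where a pair of matches is the same palindrome read from both strands. The AP-1 motif TGANTCA, in 7.81% of promoters, occurs once for Havcr2, the RUNX motif TGTGGT, in 16.8%, once each for Havcr2 and Btla, and the GC box GGGCGG, in 35.7%, once for Pdcd1. A match describes the letters only and is not evidence of binding.

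Total counts ran from 14726904 to 21478137 per library, and no pair of libraries agreed within sampling noise. Library numbers fall into a low run of 8 libraries (3 naïve, 3 media, 2 lactate) and a high run of 4 (1 naïve, 1 media, 2 lactate). Naïve replicate 4, the sole naïve library of the high run, stood apart: its mean correlation with its own group was 0.950, against 0.969 to 0.972 for the other naïve libraries and 0.983 to 0.989 for the activated ones, so this library and its run cannot be told apart. In that library Fos was at 34.6 CPM against 2388 to 2713 in the other naïve libraries, Cd8a at 388 against 849 to 1208, and Trdc at 7.06 against 262 to 351. The 6 markers of CD8+ T cells summed to 1991 to 4036 CPM in naïve, 3095 to 3879 in media and 2303 to 2901 in lactate libraries, so the labelled cell type was present throughout. Il2ra, the high-affinity IL-2 receptor chain, rose by 5.53 (log2) in media against naïve. Naïve libraries also held transcripts of other cells. B cell markers (7 genes) summed to 2300 to 5211 CPM in naïve, 435 to 708 in media and 251 to 336 in lactate libraries, myeloid markers (6 genes) to 514 to 1565, 11.9 to 18.7 and 5.18 to 10.6, and dendritic cell markers (6 genes) to 69.6 to 155, 6.60 to 27.5 and 80.0 to 91.5. Csf1r, a defining myeloid gene, was at 205 to 918 CPM in naïve and at 0 to 0.109 CPM in activated libraries. In such bulk samples, fewer cells of a type and less RNA per cell cannot be told apart.

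Per transcript length, Cd5 and Btla were the most abundant of the 7 receptors in naïve cells and Ctla4 and Lag3 the most abundant after activation. In TPM (counts divided by gene length and scaled to a common total; mean ± SD, n = 4), naïve levels were 130.5 ± 44.4 for Cd5, 127 ± 28.7 for Btla, 41.2 ± 16.8 for Ctla4, 28.5 ± 9.01 for Lag3, 21 ± 2.7 for Havcr2, 19.3 ± 12.0 for Cd160 and 7.32 ± 8.26 for Pdcd1. Of the neighbours in this order, only Btla and Ctla4 had ranges that did not overlap. Media levels were 982 ± 189 TPM for Ctla4, 847 ± 50.7 for Lag3, 175 ± 11 for Cd5, 108 ± 17.9 for Btla, 82.9 ± 35.9 for Pdcd1, 54.3 ± 6.29 for Cd160 and 0.798 ± 0.456 for Havcr2. Here the ranges of Ctla4 and Lag3, of Btla and Pdcd1, and of Pdcd1 and Cd160 overlapped. With lactate the levels were 661 ± 93.6 TPM for Ctla4, 525 ± 44.7 for Lag3, 123 ± 6.55 for Cd5, 86.8 ± 21.7 for Pdcd1, 51.7 ± 5.62 for Btla, 26.0 ± 3.44 for Cd160 and 3.24 ± 2.01 for Havcr2. The order was that of media cells except that Pdcd1 stood above Btla, and both this pair and Ctla4 with Lag3 overlapped.

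In media against naïve cells 3 of the 7 receptors, Lag3, Ctla4 and Pdcd1, were higher by 29.2-fold, 23.7-fold and 11.5-fold, and Havcr2 was lower by 26.2-fold. Btla, Cd160 and Cd5 did not pass the test. Calls are from the quasi-likelihood test of edgeR in 1 fit of all 12 libraries, at a Benjamini-Hochberg adjusted p of at most 0.01 over all tested genes, and 57.5% of all genes were called in this comparison (28.5% higher, 29% lower). The 3 comparisons share their groups and are not independent of each other.

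Lag3 encodes a receptor for MHC class II that is homologous to CD4. Its levels, as CPM scaled by TMM (trimmed mean of M values), were 25.2, 18.6, 14.5 and 12.3 in the naïve libraries and 547, 504, 489.9 and 519 in the media libraries. Every media library lay far above every naïve one, and the media libraries differed little among themselves. The log2 fold change was 4.87 (SE 0.21, edgeR adjusted p = 3.29e-09), and the difference was 4.75 among low-run and 5.39 among high-run libraries.

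Ctla4, the receptor for CD80 and CD86, was at 22.0, 19.5, 27.4 and 42.6 CPM in naïve and at 488, 668, 798 and 690 CPM in media libraries. The groups were again wide apart, with the highest naïve level in replicate 4. Its log2 fold change was 4.57 (SE 0.26, edgeR adjusted p = 2.56e-08), with differences of 4.80 (low run) and 4.01 (high run).

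Pdcd1, the receptor for PD-L1 and PD-L2, was at 2.25, 1.74, 1.51 and 10.6 CPM in naïve and at 50.5, 27.7, 32.5 and 75.6 CPM in media libraries. The groups did not overlap, but both high-run libraries, naïve replicate 4 and media replicate 4, had the highest value of their group. A log2 fold change of 3.52 was fitted (SE 0.58, edgeR adjusted p = 0.000152), and of 4.66 without naïve replicate 4.

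Havcr2, whose product binds galectin-9 and phosphatidylserine, went the other way. It was at 17.6, 20.2, 14.5 and 15 CPM in naïve libraries (267 to 336 counts) and at 1.06, 0.709, 0.279 and 0.439 CPM in media libraries (5 to 23 counts). All naïve libraries lay above all media libraries, and naïve replicate 4 lay within the range of the others. Its log2 fold change was -4.71 (SE 0.48, edgeR adjusted p = 2.47e-06), with -4.59 among low-run and -4.78 among high-run libraries. Havcr2 is also expressed by myeloid and dendritic cells, whose markers fell with it (all 6 of 6 myeloid and 5 of 6 dendritic markers were called lower in media against naïve), and their part in the result was not tested. The plot of Havcr2 beside the marker sums shows them together.

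**Figure D1:**
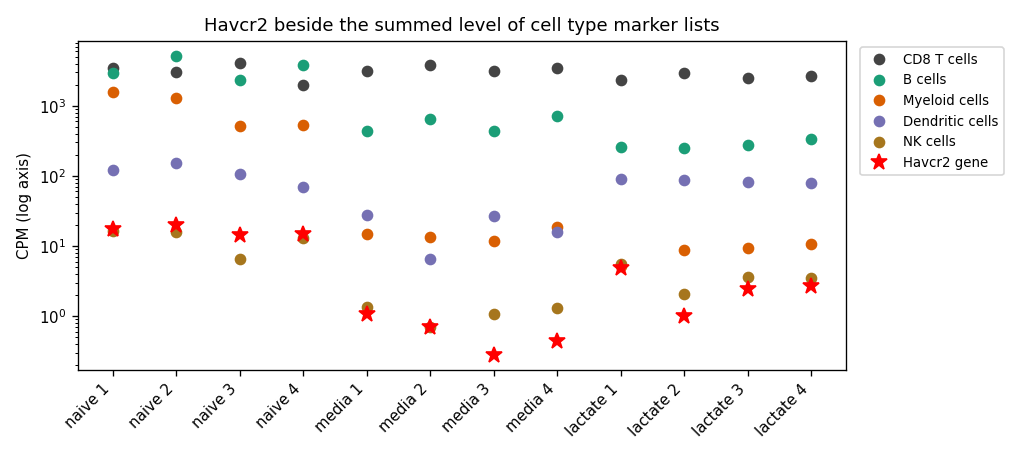
Level of Havcr2 (stars) and summed levels of 5 cell type marker lists (circles) in each of the 12 libraries, in CPM on a log axis. Myeloid and B cell markers, like Havcr2, were highest in the 4 naïve libraries, whereas the CD8+ T cell markers stayed within 1991 to 4036 CPM.

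Btla, the receptor for the TNF receptor family member HVEM, was at 128, 163, 134 and 83.6 CPM in naïve and at 89.0, 130.0, 102 and 104 CPM in media libraries. These groups overlapped, with naïve replicate 4 the lowest of all 8 libraries. For Btla the log2 fold change was -0.26 (SE 0.17, edgeR adjusted p = 0.202), and it was -0.42 (adjusted p = 0.0105 in edgeR) without that library. BTLA is abundant on B cells as well, and the fall of the 7 B cell markers from naïve to media libraries, all of them called lower, accompanied these values and its part in them was not tested.

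Cd160, which encodes a lipid-anchored receptor for HVEM, was at 17.9, 23.4, 18.1 and 1.23 CPM in naïve and at 37.7, 42.6, 36.0 and 49.7 CPM in media libraries. No naïve library reached a media library, and naïve replicate 4, at 22 counts, was far below the rest. Trdc, a gamma-delta T cell marker, was also lowest in that library, as given above. In media against naïve cells Trdc changed by -1.18 (log2) and the further markers Trgc1 and Trgc2 by -0.56 and 0.02. None of these 3 was called, and 1 was called lower without naïve replicate 4. The part of such cells in the result was not tested. A log2 fold change of 1.45 (SE 0.52) was fitted with an adjusted p of 0.0253 in edgeR, and the exact two-sided permutation test gave p = 0.0286, the smallest that 4 against 4 libraries allow. Without naïve replicate 4 the change was 1.07 and passed the threshold (edgeR adjusted p = 3.71e-05), which makes 5 of the 7 receptors called (4 higher, 1 lower), when 61.5% of all genes were.

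Cd5, which encodes a scavenger receptor family protein that dampens T cell receptor signalling, was at 206, 212.5, 248 and 92.8 CPM in naïve and at 247, 266, 230.4 and 253 CPM in media libraries. The groups overlapped, and naïve replicate 4 was again the lowest. In the fit, Cd5 had a log2 fold change of 0.39 (SE 0.22, edgeR adjusted p = 0.134), and of 0.16 without naïve replicate 4. Across the receptors, the levels of the groups did not overlap for 5 of 7 (4 higher, 1 lower), beside 61.2% of all genes (30.7% higher, 30.5% lower). The median change of the 7 was 1.45 (log2), and that of all tested genes was -0.029.

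**Figure D2:**
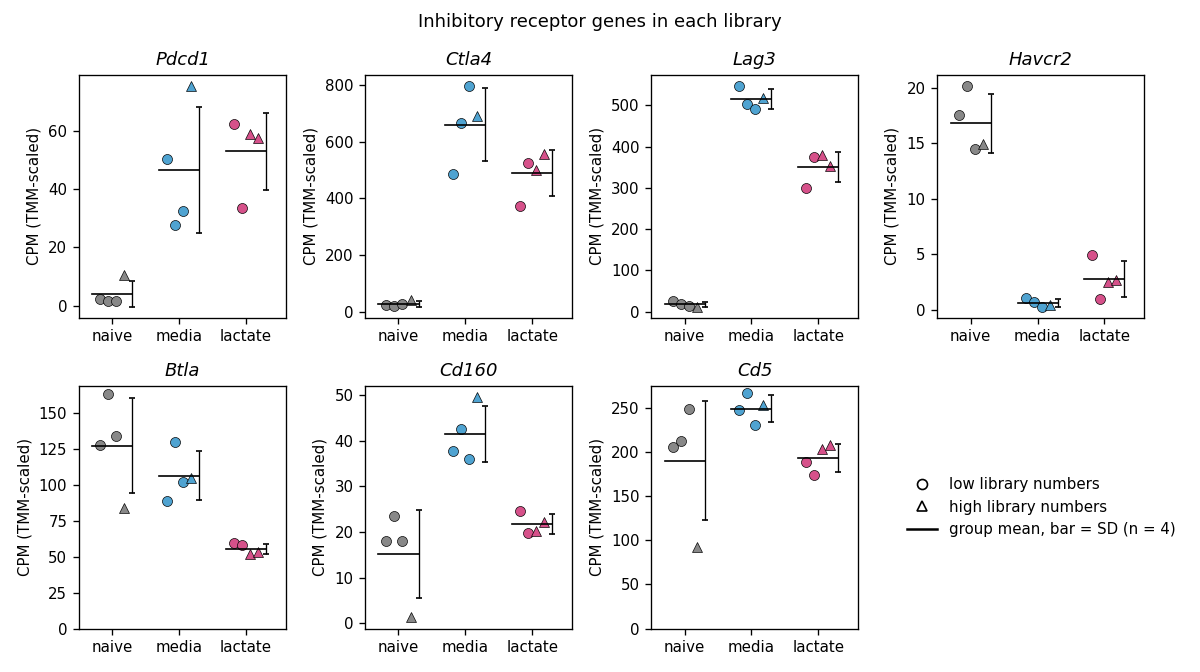
Level of each of the 7 receptor genes in each library, in CPM on linear axes that differ between panels (circles, low library numbers; triangles, high library numbers; lines and bars, group mean and SD, n = 4). Lag3, Btla, Cd160 and Cd5 show no overlap between media and lactate libraries, and Cd160 in the high-run naïve library is at 1.23 CPM.

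With lactate during activation, Havcr2 was 4.34-fold higher than in media and Btla was 1.91-fold lower, and these 2 of the 7 receptors passed the test, beside 25.1% of all genes (13.9% higher, 11.1% lower). Lag3, Cd160, Ctla4 and Cd5 had fitted changes of -0.55, -0.93, -0.43 and -0.37 (log2) that did not pass in this fit, and Pdcd1 had one of 0.19. The median of the 7 was -0.43 and that of all tested genes -0.0016. The fit shares 1 estimate of the spread over all 12 libraries. When naïve replicate 4 was left out, 5 of the 7 were called (Havcr2 higher; Btla, Lag3, Cd160 and Cd5 lower), beside 35.1% of all genes.

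Havcr2 levels were 4.92, 0.996, 2.48 and 2.7 CPM in lactate libraries (19 to 96 counts), against 1.06, 0.709, 0.279 and 0.439 CPM in media. Lactate replicate 1 was the highest, and the groups overlapped because lactate replicate 2 lay below media replicate 1. The log2 fold change was 2.12 (SE 0.46, edgeR adjusted p = 0.00336), while the exact two-sided permutation test on the CPM gave p = 0.0571. Among low-run libraries the difference was 1.71, and among high-run libraries 2.30. Without lactate replicate 1 the change was 1.68 with an edgeR adjusted p of 0.011, and the adjusted p was likewise just above the threshold without media replicate 2 (0.011 in edgeR), 3 (0.0109) or 4 (0.0106). Both groups remained below the naïve libraries, of which the lowest was at 14.5 CPM. NK cell markers (4 genes, 1 of them called higher) summed to 2.10 to 5.59 CPM in lactate and 0.709 to 1.34 in media libraries. Klre1, the called gene, made up most of this sum, at 1.99 to 4.77 CPM in lactate and 0.709 to 1.32 in media libraries. Ncr1 and Klra8 were at 0 in media and at most 0.0512 and 0.102 CPM in lactate libraries. Klrb1c was at 0 to 0.0925 CPM in media and at 0 to 0.666 CPM in lactate libraries. The dendritic cell sum was also higher with lactate, chiefly through Batf3 (76.7 to 87.2 CPM), a factor that T cells express as well. Xcr1 was at 0 in all 8 activated libraries and Clec9a in the 4 lactate and in 3 of the 4 media libraries. Itgax was at 0.167 to 0.509 CPM in media and at 0.210 to 2.72 CPM in lactate libraries. In the same order, Flt3 was at 0.0925 to 0.376 and 0 to 0.105 CPM, and Zbtb46 at 0.690 to 2.22 and 0.915 to 2.90 CPM. The part of these cells in the result was not tested.

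Btla levels were 59.3, 57.8, 51.9 and 53.2 CPM in lactate libraries, against 89.0, 130.0, 102 and 104 CPM in media. The groups did not overlap, and the lactate libraries were close together. The log2 fold change was -0.94 (SE 0.18, edgeR adjusted p = 0.00134), the exact two-sided permutation test gave p = 0.0286, and the difference was -0.85 among low-run and -0.99 among high-run libraries. With the donor as a block over the 12 libraries the change was -0.79 and was no longer called (edgeR adjusted p = 0.043), and with the donor as a block over the 8 activated libraries it was -0.78 and called (edgeR adjusted p = 0.000776). B cell markers were lower with lactate too (3 of the 7 called, with the sums given above), and their part in the result was not tested.

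Lag3 levels were 299, 374, 379.5 and 352 CPM in lactate libraries and 489.9 to 547 CPM in media. All lactate libraries were below all media libraries, with lactate replicate 1 the lowest. Its log2 fold change was -0.55 (SE 0.18, edgeR adjusted p = 0.0243; exact two-sided permutation p = 0.0286), with differences of -0.62 and -0.50 in the low and the high run. This change passed the threshold without naïve replicate 1 (edgeR adjusted p = 0.00468) or 4 (0.00596), and in a fit of the media and lactate libraries alone (0.000793).

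Cd160 levels were 24.6, 19.8, 20.2 and 22.2 CPM in lactate libraries and 36.0 to 49.7 CPM in media. The groups were clearly apart, and 3 of the 4 lactate libraries lay in the range of naïve replicates 1 to 3, at 17.9 to 23.4 CPM, with lactate replicate 1 above it. A log2 fold change of -0.93 was fitted (SE 0.51, edgeR adjusted p = 0.17; exact two-sided permutation p = 0.0286), and the run differences were -0.81 (low) and -1.23 (high). Without naïve replicate 4 the same change had an edgeR adjusted p of 0.000177, and in the fit of media and lactate alone it was -0.92 with an adjusted p of 0.000256 (edgeR).

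Ctla4 levels were 374, 526, 500.5 and 557 CPM in lactate libraries and 488 to 798 CPM in media. The ranges overlapped, because media replicate 1 lay below 3 of the lactate libraries. For Ctla4 the log2 fold change was -0.43 (SE 0.23, edgeR adjusted p = 0.15; exact two-sided permutation p = 0.114). With the donor as a block over the 8 activated libraries it was -0.42 and was called (edgeR adjusted p = 0.00813).

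Cd5 levels were 188, 174, 203 and 208 CPM in lactate libraries and 230.4 to 266 CPM in media. The groups did not overlap, although the gap was small. In the fit, Cd5 had a log2 fold change of -0.37 (SE 0.22, edgeR adjusted p = 0.211; exact two-sided permutation p = 0.0286), and without naïve replicate 4 the adjusted p was 0.0042 in edgeR.

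Pdcd1 levels were 62.4, 33.4, 59.1 and 57.7 CPM in lactate libraries, inside the media range of 27.7 to 75.6 CPM. The groups overlapped entirely, with lactate replicate 2 well below the other lactate libraries. Its log2 fold change was 0.19 (SE 0.51, 95% interval -0.80 to 1.18, edgeR adjusted p = 0.801), and the run differences were 0.35 (low) and -0.37 (high). Over the 7 receptors, levels of media and lactate did not overlap for 4, all lower with lactate, beside 44.7% of all genes (21.5% in that direction). CD8+ T cell markers were called lower with lactate as well for 3 of 6 genes, beside 11.1% of all genes. These were Cd3d, Cd3e and Cd3g, the CD3 chains of the T cell receptor complex. Trac (-0.40, log2), Cd8a (-0.15) and Cd8b1 (0.29) were not called, and the part of these markers in the results above was not tested.

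**Figure D3:**
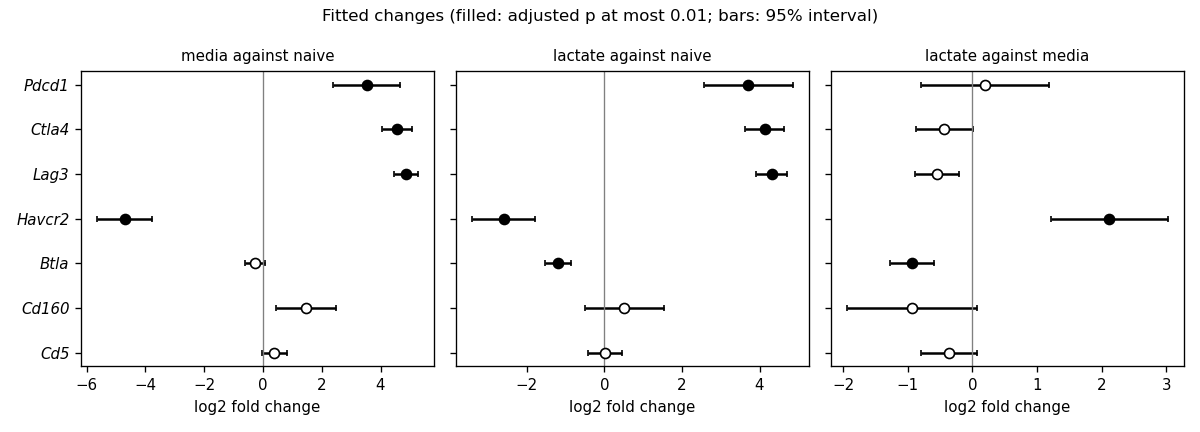
Fitted log2 fold changes of the 7 receptors in the 3 comparisons, on axes that differ between panels, with 95% intervals (filled, adjusted p of at most 0.01 in edgeR). In lactate against media, Havcr2 at 2.12 and Btla at -0.94 are filled. The fitted values of 4 further receptors lie below 0, and of these the intervals of Ctla4, Cd160 and Cd5 include 0.

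Cells of 3 donors were sequenced both from media and from lactate, and within these donors 5 of the 7 receptors were lower with lactate in every pair, beside 32.8% of all genes. The log2 difference of lactate minus media in CPM ran from -0.97 to -0.58 for Btla, from -1.16 to -0.61 for Cd160 and from -0.87 to -0.39 for Lag3. For Ctla4 it ran from -0.60 to -0.31, and for Cd5 from -0.41 to -0.28. Havcr2 was higher in all 3 pairs, as were 33.4% of all genes, by 1.51 to 2.35, and Pdcd1 was higher in 2 pairs and lower in 1 (-0.39 to 0.31). Of all genes, 66.2% had the same direction in the 3 pairs. When the donor was a block over the 8 activated libraries, an alternative chosen after the data had been seen, edgeR called 5 receptors (Havcr2 higher; Ctla4, Lag3, Btla and Cd160 lower), beside 27.4% of all genes. With the donor as a block over all 12 libraries it called Havcr2 alone, beside 7.21% of all genes.

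**Figure D4:**
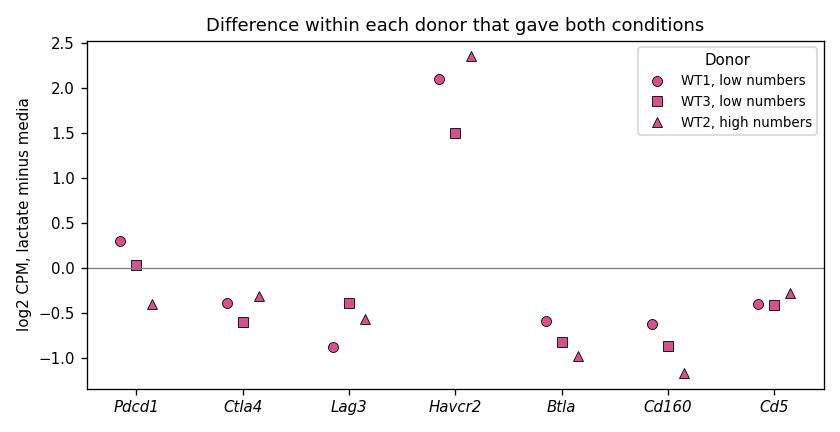
Log2 difference in CPM, lactate minus media, of each receptor within the 3 donors that gave both libraries (1 point per donor; donor tags as in the labels, with the run of library numbers). Btla, Cd160, Lag3, Ctla4 and Cd5 lie below 0 in all 3 donors, Havcr2 above 0 in all 3, and Pdcd1 on both sides.

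In lactate against naïve cells, 5 of the 7 receptors passed the test, beside 65% of all genes (33% higher, 32% lower), and the same 5 had groups that did not overlap, beside 67.8% of all genes (35% higher, 32.8% lower). Lag3, Ctla4 and Pdcd1 rose by 19.9-fold, 17.5-fold and 13.1-fold, with log2 fold changes of 4.32 (SE 0.20), 4.13 (SE 0.26) and 3.71 (SE 0.58) and edgeR adjusted p of 5.23e-09, 3.54e-08 and 8.34e-05. Without naïve replicate 4 these changes were 4.18, 4.41 and 4.85, so that Pdcd1 had the largest of the 3 in place of the smallest. Havcr2 fell by 2.59 (SE 0.41, edgeR adjusted p = 9.6e-05) and Btla by 1.20 on the log2 scale (SE 0.18, edgeR adjusted p = 4.76e-05). After activation with lactate, Btla lay below all naïve libraries, at 51.9 to 59.3 against 83.6 to 163 CPM, whereas the media libraries overlapped the naïve ones. Cd160 had a change of 0.52 (SE 0.52, edgeR adjusted p = 0.379) and Cd5 one of 0.03 (SE 0.22, edgeR adjusted p = 0.922), and the sign for Cd5 turned under other settings, for instance to -0.20 without naïve replicate 4. The median of the 7 was 0.52, beside 0.012 for all tested genes.

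Further genes of the checkpoint system were read from 4 lists. Beside their counts stand the shares of all genes called, which were 25.1% in lactate against media, 57.5% in media against naïve and 65% in lactate against naïve. Of 13 other inhibitory receptors tested, 5 fell and 0 rose with lactate against media (median -0.54), as the plot of calls by list shows. With naïve replicate 4 left out, 5 fell and 1 rose, beside 35.1% of all genes called. Pecam1 (CD31, a receptor with inhibitory tyrosine motifs) fell from 56.2 ± 14.9 to 28.0 ± 2.42 CPM (log2 fold change -1.0, edgeR adjusted p = 0.000637). Cd96, a receptor for nectin family ligands, fell from 85.1 ± 15.9 to 29.7 ± 2.04 CPM (-1.52, edgeR adjusted p = 0.00113), and Cd101 from 10.8 ± 1.93 to 4.90 ± 0.934 CPM (-1.13, edgeR adjusted p = 0.000681). In media against naïve cells 10 fell and 1 rose, beside 29% and 28.5% of all genes. The riser was Tigit, at 6.20 ± 6.22 CPM in naïve and 77.1 ± 7.28 in media cells (3.63, edgeR adjusted p = 1.73e-05). Vsir, which encodes VISTA, fell by 1.48 (log2) and Ceacam1 fell by 3.67, and Cd300a, a receptor of myeloid cells, went from 58.6 ± 32.4 to 0.0453 ± 0.0595 CPM along with the myeloid markers above. B cell and myeloid markers were higher in naïve libraries, and the part of such cells in the falls of this list was not tested. In lactate against naïve cells 11 fell and 1 rose, beside 32% and 33% of all genes, the former including Pecam1 (-2.71), Ceacam1 (-5.46) and Cd300a, at 0.0482 ± 0.0667 CPM with lactate.

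**Figure D5:**
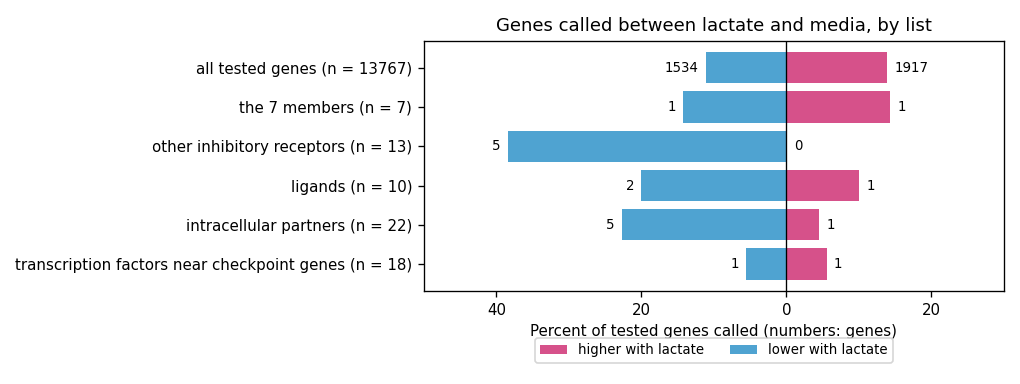
Percent of tested genes called lower (left) and higher (right) by edgeR with lactate against media, adjusted p up to 0.01, for all tested genes, the 7 receptors and 4 lists, with the number of genes at each bar. Among other inhibitory receptors 5 of 13 were lower and 0 higher, beside 11.1% and 13.9% of all genes. With naïve replicate 4 left out (not plotted), 5 were lower and 1 higher, beside 35.1% of all genes called.

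Of 10 ligands and counter-receptors tested, 2 fell and 1 rose with lactate against media (median 0.088), a share near the 25.1% of all genes. With naïve replicate 4 left out, 3 fell and 1 rose, beside 35.1% of all genes called. Tnfrsf14, which encodes HVEM, the partner of BTLA and CD160, fell from 21.3 ± 5.42 to 8.60 ± 1.81 CPM (-1.30, edgeR adjusted p = 0.000377). Cd86, a ligand of CTLA-4 made mainly by antigen-presenting cells, went from 1.81 ± 0.581 to 0.539 ± 0.206 CPM (-1.75, edgeR adjusted p = 0.00744), while Hmgb1, a nuclear protein that also binds TIM-3, rose from 148 ± 7.65 to 199 ± 11.1 CPM (0.43, edgeR adjusted p = 0.00287). In media against naïve cells 5 fell and 2 rose, beside 57.5% of all genes called, with Cd86 (-5.49), Icosl (-4.40), the ligand of the costimulatory receptor ICOS, and the B cell gene Cd72 (-2.16) among those that fell. In lactate against naïve cells 5 fell, among them Cd86 (-7.24), Icosl (-3.66) and Tnfrsf14 (-2.67), and 3 rose, beside 65% of all genes called. B cell, myeloid and dendritic markers were higher in naïve libraries, and their part in these changes was not tested.

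Among 22 intracellular partners, 5 fell and 1 rose with lactate against media (median -0.11), a share near the 25.1% of all genes. Without naïve replicate 4 the counts were 8 and 5, beside 35.1% of all genes. The kinases Dgka and Dgkz, which remove the second messenger diacylglycerol, fell from 428 ± 111 to 243 ± 15.8 CPM (-0.82, edgeR adjusted p = 0.00221) and from 659 ± 65.8 to 435 ± 23.9 CPM (-0.60, edgeR adjusted p = 0.00269). Ubash3b, a phosphatase that dampens T cell receptor signalling, rose from 78.4 ± 13.1 to 181 ± 33.7 CPM (1.21, edgeR adjusted p = 0.000928). Against naïve cells, where 57.5% (media) and 65% (lactate) of all genes were called, 6 rose and 4 fell in media, with Dgka at -1.58, the Csk adaptor Pag1 at -1.36 and the phosphatase Ptpn2 at 0.72, and 3 rose and 6 fell with lactate, with Dgka at -2.40, Pag1 at -1.90 and Ubash3b at 2.48 (log2).

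Of 18 transcription factors named near checkpoint genes, 1 rose and 1 fell with lactate against media (median -0.19), beside 25.1% of all genes called. Without naïve replicate 4 the counts were 2 and 4, beside 35.1% of all genes. Eomes, a T-box factor of effector and exhausted CD8+ T cells, rose from 4.99 ± 1.31 to 18.0 ± 9.06 CPM (1.86, edgeR adjusted p = 0.000783). Bcl6, a repressor that favours memory precursors, fell from 13.2 ± 5.87 to 3.29 ± 1.98 CPM (-2.0, edgeR adjusted p = 0.00339). In media against naïve cells 8 fell and 3 rose, beside 57.5% of all genes called. Nr4a1, an immediate early gene of T cell receptor signalling, fell by 2.23 (log2) and Ets1 fell by 1.33, while Prdm1, which encodes BLIMP-1, rose by 2.0. In lactate against naïve cells 7 fell and 5 rose, beside 65% of all genes called, the former including Nr4a1 (-2.87), Ets1 (-1.58) and Tcf7 (-2.32), which encodes TCF-1.

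The genes most like each receptor over the 12 libraries were read as a description, by Pearson's r of log2 CPM among genes with a mean of at least 5 CPM. Because the groups differ so widely, r mainly follows the difference between naïve and activated libraries. Pdcd1 was most like Taf6 (r = 0.993), Phldb1 (0.989) and the receptor Tigit (0.984). Ctla4 was most like Tmem237, Lmtk3 and Klc3 (0.996 each), and Lag3 most like Cenpm (0.997), Gm5863 and Pdk3 (0.996 each). The nearest genes to Havcr2 were Vps33a (0.978), Jade2 and Nedd9 (0.974 each), and the nearest to Btla were St8sia4 (0.976) and Trim30a (0.970). For Cd160 they were the phosphatase Ptpn6 (0.984), Nedd4 (0.981) and Zfp61 (0.971), and for Cd5 Rinl (0.984), Tox (0.980) and Tbc1d1 (0.971).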

How the data were processed

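Libraries were prepared with a stranded mRNA kit. By the study's methods and the submitters' processing notes, the authors converted base calls with bcl2fastq 2.20.0.422, aligned reads to the mouse genome (GRCm38) with STAR 2.7.5b and assigned them to Ensembl release 99 genes with featureCounts. In the table they deposited, each of 13780 genes has its raw count per library, not normalized by the authors, and its length, and every column of counts was used. Groups, replicate numbers, donor tags and library numbers came from the sample labels. All libraries were kept.

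Genes reaching 1 CPM in 3 libraries or more (13767; 13 were dropped) were scaled by TMM and fitted in R 4.3.3 with edgeR 4.0.16 (quasi-likelihood, 3 groups, no block), two-sided, with Benjamini-Hochberg adjustment over all of them and a threshold of 0.01. Replicates varied by 23.5% (biological coefficient of variation). Single genes also had an exact permutation test (4 against 4, difference of mean CPM). Differences within a run of library numbers are of mean log2 CPM. Log2 CPM used a prior count of 2. DESeq2 1.42.0, limma 3.58.1 (voom), other scalings, other filters, blocks and leaving out each library were the alternatives. The study gives independent mouse donors within each condition, and naïve libraries carry no donor tag. By the tags, 3 donors gave both media and lactate libraries, a pairing that neither the main fit nor the permutation test uses.

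Donor tags recur in the low and the high run and were read separately per run. This reading gives 5 donors of activated cells, the number stated in the record. It pairs media with lactate libraries for 3 donors. Deviations from the group means correlated at 0.374, 0.211 and 0.553 in those pairs. For libraries sharing a title number they correlated at 0.374, 0.297, 0.00380 and 0.553. Title numbers 1 and 4 join libraries of the same donor, and title numbers 2 and 3 do not. Title number 2 joins libraries of the same run, and title number 3 joins libraries of different runs. Every donor pair also lies within 1 run, and the deviations were not adjusted for run. These correlations therefore cannot tell a shared donor from a shared run.

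Coordinates are from GENCODE M21, which held 13771 of the gene identifiers, and promoters from RefSeq. The receptors, the gene lists and the rule for naming genes (all 7 receptors, and up to 3 called genes with the smallest adjusted p per list and comparison, besides genes a result turns on) were chosen with earlier results of these data known. Of the list genes, 1 inhibitory receptor symbol, 2 ligands and 1 transcription factor were not analysed here. Tigit was named after its values were seen. Some marker genes are not reported here.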

Additional observations from a re-analysis of the deposited data

Results flagged for a closer look

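Pdcd1 in naïve replicate 4 was at 10.6 CPM against 1.51 to 2.25 CPM in the other naïve libraries. Its gap to the nearest of them was 0.918 of the range of the group, above Dixon's critical value for 4 samples. Pdcd1 in lactate replicate 2 was at 33.4 CPM against 57.7 to 62.4 CPM in the other lactate libraries, with a gap of 0.836 of the range. These were 2 of 21 groups of 4 tested (7 receptors in 3 groups), and chance alone places about 1 in 20 groups past this value. By the donor tags, lactate replicate 2 and media replicate 3 came from the same donor. Pdcd1 was at 32.5 CPM in that media library, within a media range of 27.7 to 75.6 CPM.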

How the results depend on the processing

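In the comparisons with naïve cells, the counts of called receptors (4 to 5 for media, 5 for lactate) and of called genes stayed within 1.5 times the values reported under all 22 alternatives. For lactate against media, 3451 genes and 2 receptors were called. The number of genes was 5461 at an adjusted p of at most 0.05, 992 with the replicate block by donor over 12 libraries, and 2260 (without media replicate 2) to 4830 (without naïve replicate 4) when single libraries were left out. The number of receptors was 5 in the fit of both activated groups alone, 1 with the donor block over 12 libraries, 5 with that block over the 8 activated libraries, and 1 (without lactate replicate 1 or media replicate 2, 3 or 4) to 5 (without naïve replicate 4) when single libraries were left out. The cause was not tested.

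By log2 fold change of lactate against media, Lag3 was called with DESeq2 (-0.59), limma voom (-0.56), both activated groups alone (-0.54), the donor block over 8 libraries (-0.59) and an adjusted p of at most 0.05 (-0.55), and ran from -0.60 to -0.48 with single libraries left out. Cd160 was called with both activated groups alone (-0.92) and the donor block over 8 libraries (-0.87), and ran from -1.0 to -0.84. Cd5 was called with both activated groups alone (-0.35) and ran from -0.41 to -0.32, and Ctla4 was called with the donor block over 8 libraries (-0.42). Havcr2 was not called with limma voom (2.04) and ran from 1.68 to 2.52, and Btla was not called with the donor block over 12 libraries (-0.79). The sign for Pdcd1 turned with the donor block (-0.015 over 12 libraries, -0.0034 over 8). A block by title number changed no call of a receptor.

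Cd5 in lactate against naïve cells, never called, turned to -0.068 with DESeq2 and with its size factors in edgeR, -0.037 with upper quartile scaling, -0.0091 with total counts and -0.028 with the compared groups alone. Leaving out single libraries gave -0.20 to 0.17, and it was negative at -0.065 (lactate replicate 3), -0.079 (lactate 4), -0.045 (media 4), -0.0051 (naïve 1) and -0.20 (naïve 4). Cd160 in media against naïve cells was called with limma voom (2.06) and at an adjusted p of at most 0.05. Havcr2, at 5 to 23 counts per media library, is the receptor whose level depth limits most.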
